A study of Mus musculus with 4 samples.

Results

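The Hox genes of clusters A to D were compared between the dorsal and the ventral portion of the early mouse foregut, the tracheoesophageal anlage. Members were the probe sets that GEO's platform annotation assigns to a single gene named Hox, a cluster letter and a paralog number. There were 48 such probe sets of 45101 on the array, and they covered 33 of the 39 mouse Hox genes. *Hoxb8* and *Hoxd4* had only probe sets that a neighbouring Hox gene shares, and the remaining genes were not analysed here.

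The anlage was taken at E9.75 from BALB/c embryos, without treatment or genetic change in the sample labels, and it is the single foregut tube that later gives the esophagus dorsally and the trachea and lungs ventrally. At this stage the lung bud is only a swelling. The tube was dissected between the pharynx and the end of the bud and cut by hand into both parts, so that each sample held epithelium and mesenchyme together, with any adjacent tissue that stayed on it. There were 2 Affymetrix arrays per part, called biological replicates in the labels, and nothing says whether they came from separate litters, so the p-values rest on the spread among these samples, which may be technical. In such samples, fewer cells of a type and less RNA per cell cannot be told apart.

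Hox genes encode homeodomain transcription factors that give cells their position along the head-to-tail axis. In mammals they lie in 4 clusters, and within a cluster the genes with low paralog numbers are switched on earlier and farther toward the head than those with high numbers. Genes with the same number in different clusters, called paralogs, have similar proteins and partly shared functions. In the foregut, Hox genes of the middle numbers are known from the mesenchyme, where *Hoxa5* is needed for the trachea and lung and *Hoxc4* for the esophagus.

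Values are RMA values on the log2 scale, and for each gene the brightest probe set, the one with the highest mean over the 4 arrays, is given unless stated otherwise. Genes were tested if they lay above the 40th percentile of all probe sets (4.69 to 4.82) on 2 or more arrays. A gene under that mark had no test, and its values lie among the dimmer probe sets of the arrays. Without detection calls this does not show that it was absent. Of the 33 genes, 19 were tested and 14 were not. Since probe sets differ in how brightly they hybridise, levels are compared between parts for one gene and not between genes.

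Of the 19 tested Hox genes, 10 were dorsally higher with an adjusted p under 0.05 from limma, none were ventrally higher and 9 did not pass. The share of 52.6% compares with 4.79% of all 13139 tested genes called higher dorsally and 4.09% called higher ventrally. Of the 10 genes, *Hoxb6* and *Hoxd3* entered the test through the dorsal arrays only, where they are high. No Hox gene had an unadjusted p under 0.05 from limma in the ventral direction, against 7.98% of all tested genes, and 11 had one in the dorsal direction, against 11% of all. The median difference of the 19 genes, dorsal minus ventral, was 0.60 on the log2 scale, against 0.07 for all tested genes. Without dorsal replicate 1 only 5 of 17 tested Hox genes passed (1.90% of all genes), without dorsal replicate 2 only 4 of 17 (1.94%), and without ventral replicate 1 it was 12 of 19 (35.1%). With 2 arrays per part, the smallest two-sided p of an exact permutation test is 0.333.

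**Figure D1:**
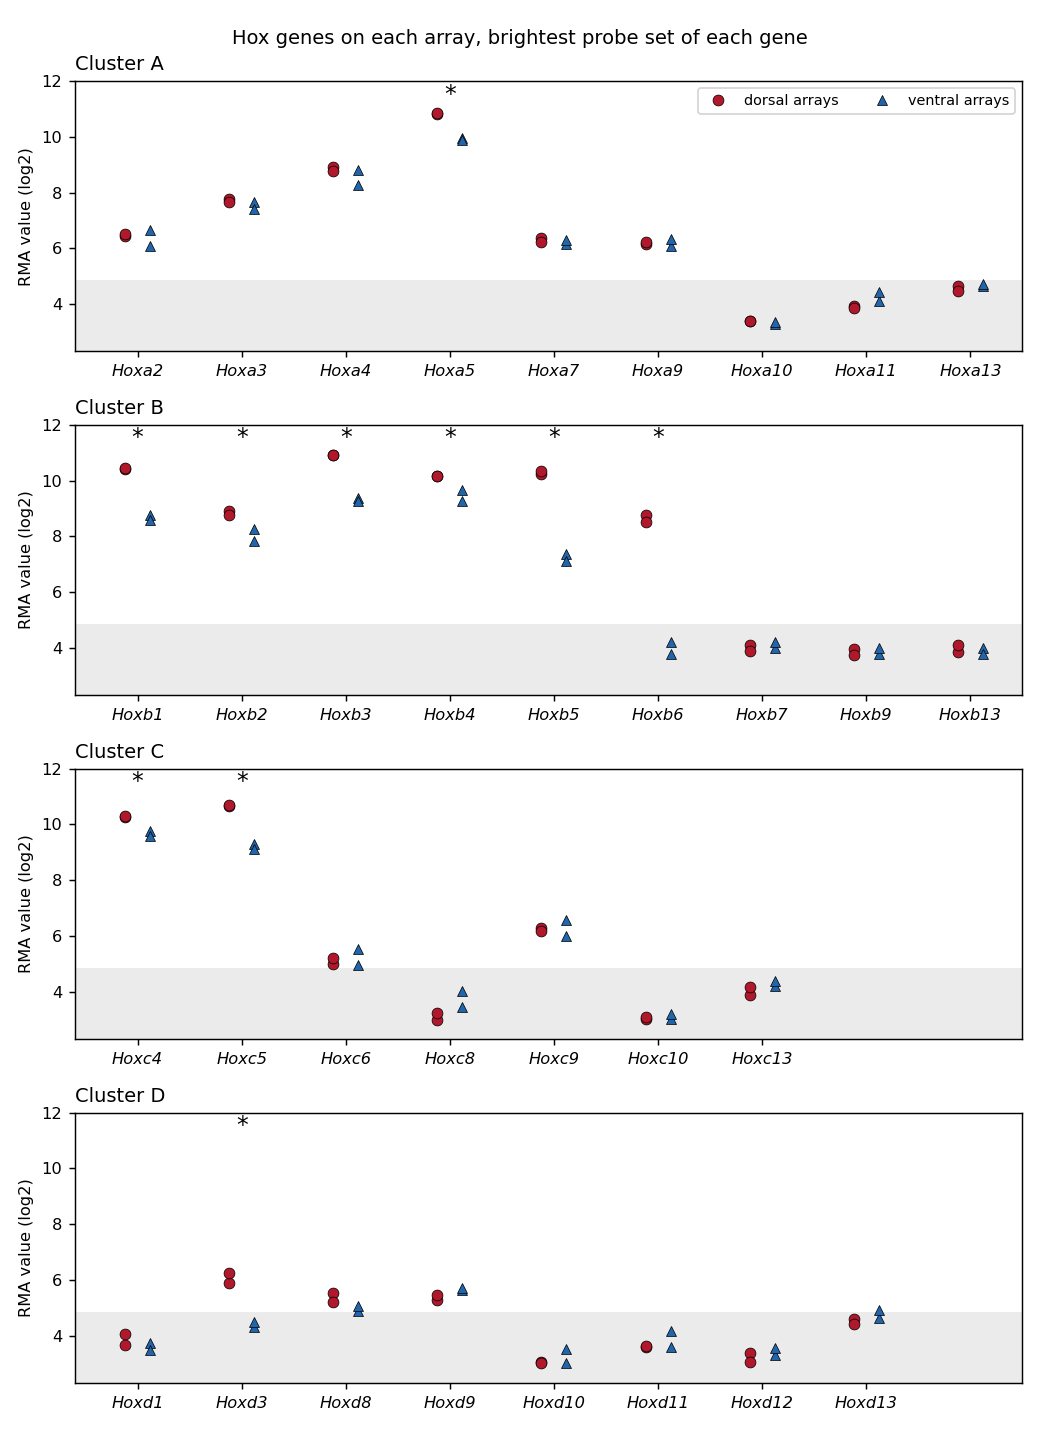
RMA values (log2, vertical axis) of the brightest probe set of each Hox gene in clusters A to D, with 1 point per array, circles for dorsal and triangles for ventral arrays. The grey band marks values under the 40th percentile and asterisks mark the 10 genes that were higher dorsally. In all 10 both dorsal values lie above both ventral values, and every gene with a paralog number of 10 to 13 lies in or at the edge of the grey band.

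All 10 dorsally higher genes had paralog numbers from 1 to 6. Of the 14 tested genes with these numbers, 10 were higher dorsally, with a median difference of 0.84. Of the 5 tested genes with numbers from 7 up none passed, with a median of -0.02. Of all tested genes 4.79% were called higher dorsally, and none of 5 is near that share. The values of these 5 genes ran from 4.88 to 6.56, and the part of signal level was not tested. All 10 genes with numbers 10 to 13 were under the filter. Across the 19 tested genes, which share the same 4 arrays and are not independent replicates, Spearman's rho of the difference with the paralog number was -0.49 and Pearson's r was -0.25. Of the 18 genes with a number from 7 up, 13 were under the filter, and their values carry no order.

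**Figure D2:**
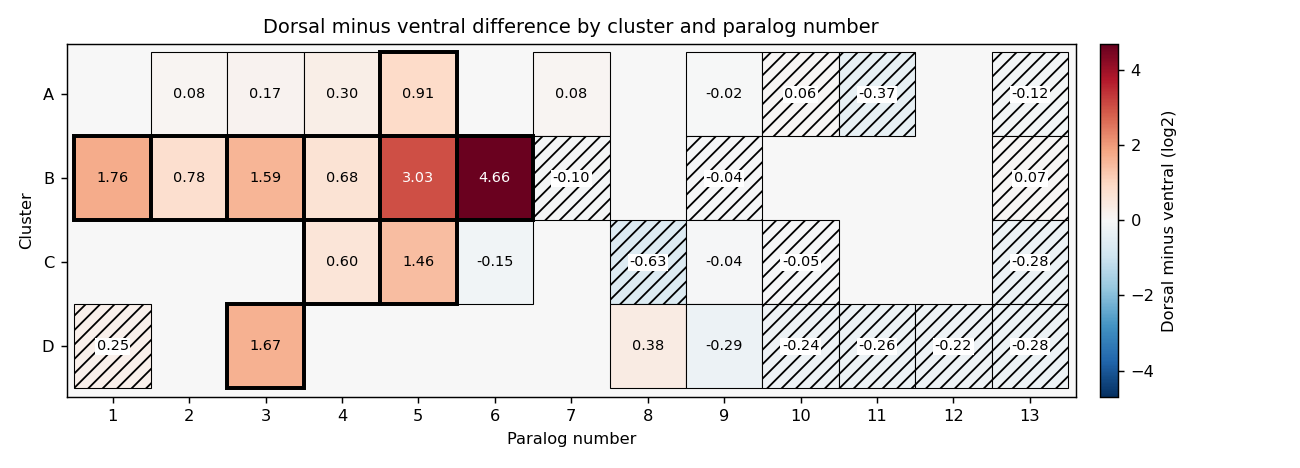
Difference between the parts (dorsal minus ventral, log2, colour and number) for each Hox gene, placed by paralog number (horizontal axis) and cluster (vertical axis). Thick frames mark genes higher dorsally by limma, hatching marks genes under the filter and blank areas have no value. The framed fields all lie at numbers 1 to 6, with the whole tested stretch of cluster B from 0.68 to 4.66.

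Cluster B, on chromosome 11, was the cluster in which every tested gene was higher dorsally. Its 6 tested genes were *Hoxb1* to *Hoxb6*, with a median difference of 1.68, and *Hoxb7*, *Hoxb9* and *Hoxb13* were under the filter on all 4 arrays. *Hoxb6* is a gene of the lateral plate mesoderm. A paper that cites this series reported its RNA, at later stages, in mesenchyme around the distal bronchi and not along the trachea. Stage and region there differ from those of the parts dissected here. On these arrays *Hoxb6* had 8.76 and 8.52 dorsally against 4.20 and 3.76 ventrally. The dorsal values were far above the 40th percentile and the ventral ones under it. The log2 difference was 4.66 (standard error 0.18, n = 2 per part, adjusted p = 4.03e-14 from limma), a 25.3-fold difference of the values, and with the ventral 40th percentiles in place of the ventral values it was 3.88 or 14.8-fold.

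*Hoxb5*, which acts in lung branching and in the enteric neural crest, was 8.18-fold higher dorsally. It had 10.23 and 10.34 dorsally and 7.37 and 7.13 ventrally (log2 difference 3.03, standard error 0.17, adjusted p = 1.73e-11 from limma). Unlike *Hoxb6* it stayed above the 40th percentile on both ventral arrays. Taken between arrays of the same replicate number, its differences were 2.86 and 3.21, and those of *Hoxb6* were 4.56 and 4.76. *Hoxb7*, the next gene in the cluster, had 4.11 and 3.90 dorsally and 4.01 and 4.21 ventrally. Its dorsal and ventral values overlapped, and all were under the 40th percentile.

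The opposite-strand transcript *Hoxb5os*, whose RefSeq span covers both *Hoxb5* and *Hoxb6*, had 10.92 and 10.97 dorsally and 6.42 and 6.43 ventrally. Its log2 difference was 4.52 (standard error 0.16, adjusted p = 1.25e-07 from limma over 23336 probe sets), and the groups did not overlap. A probe set shared by *Hoxb8* and *Hoxb7* had 5.95 and 5.36 dorsally and 5.10 and 4.90 ventrally, a difference of 0.65 that was not tested because the probe set has no single gene. The lowest dorsal value was only slightly above the highest ventral one.

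*Hoxb1*, known from the hindbrain, where it is held on by a loop in which HOX and PBX proteins bind its own regulatory sequence, was 3.39-fold higher dorsally. It had 10.43 and 10.46 dorsally and 8.77 and 8.60 ventrally (log2 difference 1.76, standard error 0.17, adjusted p = 8.62e-08 from limma). *Hoxb3*, a gene of the posterior pharyngeal arches and hindbrain, had 10.93 and 10.91 dorsally and 9.38 and 9.28 ventrally (log2 difference 1.59, standard error 0.17, adjusted p = 3.49e-07 from limma). In both genes the gap between the parts was more than the gaps between replicates, which were at most 0.17 for *Hoxb1* and 0.10 for *Hoxb3*.

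*Hoxb2*, a hindbrain gene, and *Hoxb4*, a gene of the cervical region, had the smallest differences among the 6 tested genes of cluster B. *Hoxb2* had 8.91 and 8.76 dorsally and 8.27 and 7.84 ventrally (log2 difference 0.78, standard error 0.18, adjusted p = 0.00567 from limma). *Hoxb4* had 10.16 and 10.15 dorsally and 9.67 and 9.28 ventrally (log2 difference 0.68, standard error 0.18, adjusted p = 0.0145 from limma). The ventral arrays differed from each other by 0.42 for *Hoxb2* and 0.39 for *Hoxb4*. Both lost their call when either dorsal array was left out, with an adjusted p from limma up to 0.309 for *Hoxb2* and 0.362 for *Hoxb4*.

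Promoter sequences were chosen by the call and the HOX-PBX motif, so comparing them carries no evidence about the motif. The sequences are shown for *Hoxb1* and *Hoxa5*, which were higher dorsally, and for *Hoxa2*, which did not pass. They are the 250 bases before the start of each gene in a table of RefSeq promoter sequences of the mouse assembly GRCm38.p6, which does not hold every gene, 5′ to 3′ on the gene's strand, and capitals mark the motifs found. The motifs searched on both strands were TGATNNAT (HOX-PBX), TGACAG (Meis), the DR5 and DR2 direct repeats of the retinoic acid receptor (core GGTCA), and TATAAA.
*Hoxb1*, chr11:96365508-96365757, + strand: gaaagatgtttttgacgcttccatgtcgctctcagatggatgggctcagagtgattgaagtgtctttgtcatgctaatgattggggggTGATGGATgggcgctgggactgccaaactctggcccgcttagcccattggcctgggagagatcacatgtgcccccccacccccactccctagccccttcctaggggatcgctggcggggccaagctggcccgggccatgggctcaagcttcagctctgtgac
*Hoxa5*, chr6:52204588-52204837, - strand: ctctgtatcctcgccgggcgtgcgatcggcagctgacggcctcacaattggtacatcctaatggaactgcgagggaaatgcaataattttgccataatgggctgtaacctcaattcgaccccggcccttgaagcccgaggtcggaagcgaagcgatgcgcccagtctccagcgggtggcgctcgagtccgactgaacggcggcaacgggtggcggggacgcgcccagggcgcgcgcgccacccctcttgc
*Hoxa2*, chr6:52164832-52165081, - strand: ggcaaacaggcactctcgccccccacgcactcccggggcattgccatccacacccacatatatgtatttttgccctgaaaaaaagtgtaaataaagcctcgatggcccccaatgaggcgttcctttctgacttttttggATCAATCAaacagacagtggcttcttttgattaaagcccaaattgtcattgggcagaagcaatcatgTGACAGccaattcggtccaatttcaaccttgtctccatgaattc
The *Hoxb1* window held TGATGGAT at 162 bases before the start. The *Hoxa2* window held TGATTGAT on the opposite strand at 111 bases before the start, and TGACAG at 44. The *Hoxa5* window held none of the 5 motifs. The HOX-PBX motif was in 7.68% of all 32851 promoter windows and in 4 of 24 Hox windows, those of *Hoxb1*, *Hoxa2*, *Hoxd11* and *Hoxb8*. Among the 5 windows of dorsally higher genes it was in 1. The Meis motif was in 15.9% of all windows and 2 of the 24. The DR5 and DR2 repeats were in 0.076% and 0.067% of all windows and in no Hox window. They are too rare for their absence from 24 windows to be read. TATAAA was in 12.4% of all windows and in 4 Hox windows. This promoter table held 22 Hox genes, among them 5 of the 10 dorsally higher ones, and it did not hold *Hoxb5* or *Hoxb6*. A match describes letters in this window only.

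In cluster C, on chromosome 15, *Hoxc5* and *Hoxc4* were higher dorsally, 2 of 4 tested genes. *Hoxc5*, a cervical and thoracic gene, had 10.66 and 10.70 dorsally and 9.30 and 9.13 ventrally (log2 difference 1.46, standard error 0.17, adjusted p = 1.44e-06 from limma), or 2.75-fold. *Hoxc4*, whose loss disturbs the muscle of the esophagus, had 10.26 and 10.31 dorsally and 9.78 and 9.60 ventrally (log2 difference 0.60, standard error 0.17, adjusted p = 0.0261 from limma), or 1.51-fold. Its arrays did not overlap between the parts, but it lost its call when either dorsal array was left out, with an adjusted p from limma up to 0.616. *Hoxc6*, a thoracic gene, had 4.99 and 5.22 dorsally and 4.97 and 5.54 ventrally, so the parts overlapped (difference -0.15, adjusted p = 0.719 from limma). *Hoxc9* had 6.29 and 6.18 dorsally and 5.99 and 6.56 ventrally (difference -0.04, adjusted p = 0.927 from limma), and without ventral replicate 1 it passed in the ventral direction at -0.33, in a fit that called 12.3% of all genes so. *Hoxc8*, *Hoxc10* and *Hoxc13* were under the filter.

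In cluster A, on chromosome 6, *Hoxa5* alone of 6 tested genes was higher dorsally. It had 10.81 and 10.86 dorsally and 9.95 and 9.90 ventrally (log2 difference 0.91, standard error 0.17, adjusted p = 0.000564 from limma), or 1.88-fold. The replicates differed by at most 0.06, far less than the parts, and without dorsal replicate 2 it missed the threshold at a difference of 0.89 (adjusted p = 0.0703 from limma). *Hoxa4* had 8.93 and 8.76 dorsally and 8.82 and 8.27 ventrally (difference 0.30, adjusted p = 0.431 from limma), with overlap between the parts. *Hoxa3*, which is needed for the thymus and parathyroid, had 7.77 and 7.65 dorsally and 7.67 and 7.41 ventrally (difference 0.17, adjusted p = 0.645 from limma), again with overlap. *Hoxa2*, a gene of the pharyngeal arch of the hyoid, had 6.42 and 6.50 dorsally and 6.66 and 6.10 ventrally (difference 0.08, adjusted p = 0.855 from limma), and the ventral values spanned the dorsal ones. Without ventral replicate 1, *Hoxa2* (0.37) and *Hoxa4* (0.57) passed in the dorsal direction, in a fit that called 35.1% of all genes so.

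*Hoxa7*, a thoracic gene, had 6.38 and 6.22 dorsally and 6.16 and 6.29 ventrally (difference 0.08, adjusted p = 0.844 from limma). *Hoxa9* had 6.16 and 6.23 dorsally and 6.08 and 6.34 ventrally (difference -0.02, adjusted p = 0.972 from limma). In both genes the parts overlapped. *Hoxa10*, *Hoxa11* and *Hoxa13*, genes of the lower trunk, limb and urogenital tract, were under the filter on all arrays.

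In cluster D, on chromosome 2, *Hoxd3*, a gene of the neck vertebrae, was the dorsally higher one of 3 tested genes. It had 5.89 and 6.23 dorsally and 4.32 and 4.47 ventrally, below the 40th percentile on both ventral arrays (log2 difference 1.67, standard error 0.18, adjusted p = 4.06e-07 from limma). Set against the ventral 40th percentiles the difference was 1.30, or 2.47-fold in place of 3.17-fold. A pair of probe sets shared by *Hoxd4* and *Hoxd3* differed in the same direction without overlap. One had 7.06 and 7.04 dorsally and 5.70 and 5.92 ventrally, and the other had 5.55 and 5.92 dorsally and 4.72 and 4.82 ventrally. They were not tested, since transcripts of both genes cannot be told apart in them. The opposite-strand transcript *Hoxd3os1* had 5.16 and 4.49 dorsally and 3.35 and 3.40 ventrally on one probe set, with 1 dorsal array above the 40th percentile, and differed by -0.22 on the other. *Hoxd8* had 5.52 and 5.19 dorsally and 4.88 and 5.07 ventrally (difference 0.38, adjusted p = 0.247 from limma), and *Hoxd9* had 5.29 and 5.47 dorsally and 5.63 and 5.71 ventrally (difference -0.29, adjusted p = 0.383 from limma). Both were free of overlap, in opposite directions, as were 33.3% of all tested genes in the dorsal and 17.6% in the ventral direction (26.3% and 20% of all genes with a value). *Hoxd1*, *Hoxd10*, *Hoxd11*, *Hoxd12* and *Hoxd13* were under the filter, *Hoxd13* with 1 ventral array above it.

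By paralog number, group 5 was the one with several tested members in which each passed. *Hoxb5*, *Hoxc5* and *Hoxa5* had differences of 3.03, 1.46 and 0.91, with no overlap between the parts in any of them. In group 3, *Hoxd3* (1.67) and *Hoxb3* (1.59) passed and *Hoxa3* (0.17) did not. In group 4, *Hoxb4* (0.68) and *Hoxc4* (0.60) passed and *Hoxa4* (0.30) did not. In group 6 the members differed most from each other, with *Hoxb6* at 4.66 and *Hoxc6* at -0.15. The values of *Hoxc6*, 4.97 to 5.54, lay little above the 40th percentile. The cluster A member had the smallest difference of its group in groups 2, 3, 4 and 5.

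The 14 genes under the filter had values between 2.97 and 4.93 on all arrays and differences from -0.63 for *Hoxc8* to 0.25 for *Hoxd1*. Of them 3 had a difference above 0 and 11 one below 0, a split that was not set against all genes. Between the parts 9 overlapped. Of all genes with a value, 26.3% were free of overlap in the dorsal and 20% in the ventral direction. The 14 genes were not tested, and such values carry no order.

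Where a gene had more than 1 probe set, the others were compared with the brightest. Of 11 such genes, 8 had all their probe sets on one side of 0 and 3, *Hoxa3*, *Hoxa10* and *Hoxc6*, did not. Of the 29 Hox probe sets above the filter, 11 were higher dorsally and 1 ventrally when probe sets were tested on their own, against 3.28% and 2.56% of all 23336 probe sets. All 9 probe sets of *Hoxa5*, *Hoxb3*, *Hoxb4* and *Hoxc5* had differences above 0, and the 3 of *Hoxc5* all passed, at 1.46, 0.89 and 1.13. The second probe set of *Hoxa5* had 9.65 and 9.76 dorsally and 8.93 and 9.47 ventrally and did not pass (difference 0.51, adjusted p = 0.235 from limma over probe sets), nor did the second of *Hoxb4* (0.57, adjusted p = 0.344). The second probe set of *Hoxb3* gave 7.93 and 7.85 dorsally and 7.06 and 7.27 ventrally, a smaller difference of 0.73 than the brightest with 1.59. The brightest probe sets of *Hoxb4* and *Hoxc4* did not pass in this larger family of tests (adjusted p = 0.0557 and 0.0648 from limma).

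*Hoxa9* was the gene whose probe sets disagreed most. Its second probe set, which the annotation gives without an accession, had 5.62 and 5.51 dorsally and 6.65 and 6.42 ventrally, with no overlap (difference -0.97, adjusted p = 0.00561 from limma over probe sets). The brightest one, given above, differed by -0.02. With the mean of both, *Hoxa9* differed by -0.49 (adjusted p = 0.0563 from limma), and without dorsal replicate 2, where the second probe set became the brightest, by -0.91 (adjusted p = 0.0555 from limma). It was thus not called in either direction as a gene.

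**Figure D3:**
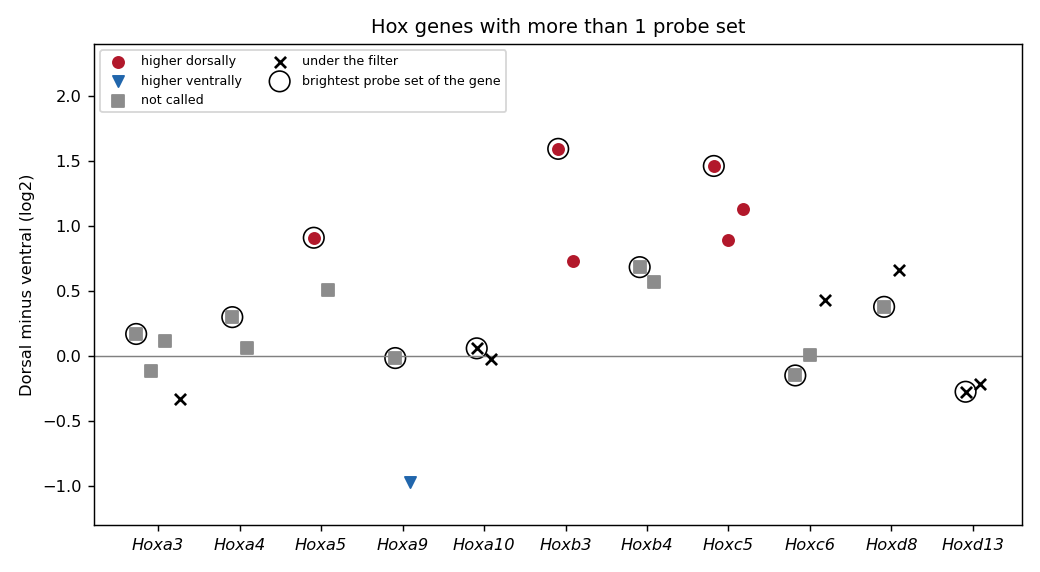
Dorsal minus ventral difference (log2, vertical axis) of every probe set of the 11 Hox genes with more than 1, with rings around the brightest. Symbols give the call of limma over probe sets. The probe sets of *Hoxb3*, *Hoxb4*, *Hoxc5* and *Hoxa5* all lie above 0, and the second probe set of *Hoxa9* lies at -0.97.

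Each array was left out in turn for the 10 dorsally higher genes. *Hoxb1*, *Hoxb3*, *Hoxb5* and *Hoxc5* passed in all 4 fits, with differences of 1.67 to 1.85, 1.54 to 1.65, 2.91 to 3.15 and 1.38 to 1.54. *Hoxb6* and *Hoxd3* differed by 4.44 to 4.88 and 1.59 to 1.74 in both fits in which they were tested. They exceeded the filter on the dorsal arrays alone, so they were not tested without either of these arrays. The fits that could be run thus add no support for these genes. *Hoxa5* passed in 3 fits, and *Hoxb2*, *Hoxb4* and *Hoxc4* in 2. Because both dorsal values exceeded both ventral ones in all 10 genes, every difference had to keep its sign. The same holds within the arrays of the same number, where the lowest difference was 0.49. These values stand beside the poly-A control RNAs, added before labelling, whose mean on replicate 2 exceeded that on replicate 1 by 1.94 dorsally and 1.63 ventrally.

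**Figure D4:**
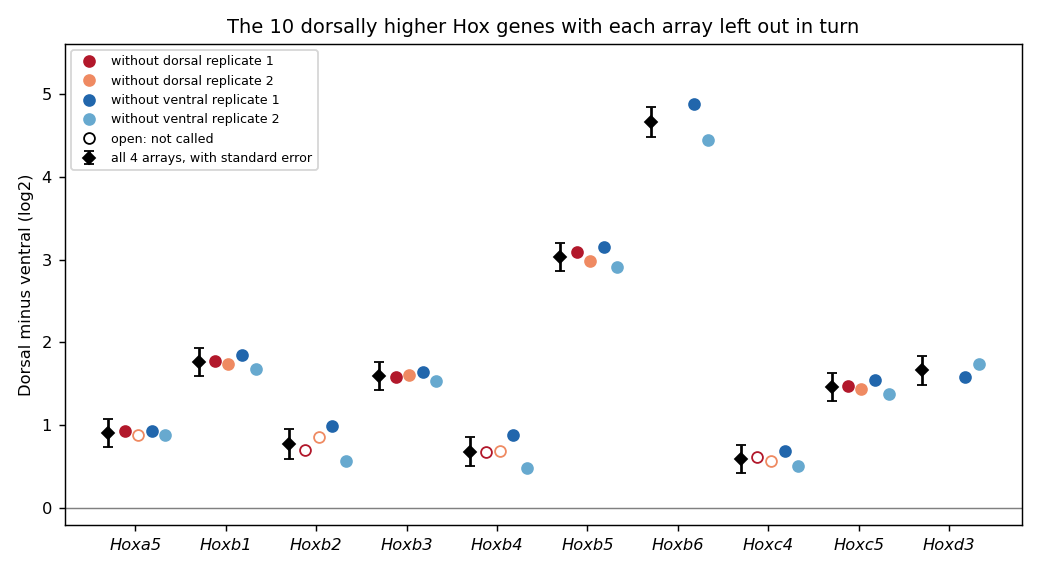
Dorsal minus ventral difference (log2, vertical axis) of the 10 dorsally higher Hox genes with all 4 arrays (diamonds, bars are the standard error of limma) and with 1 array left out (circles, open where the adjusted p was 0.05 or above). The points of each gene stay above 0, as the lack of overlap between the parts requires. *Hoxb6* and *Hoxd3* have no point without a dorsal array.

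HOX proteins bind DNA with partners of the TALE class, the MEIS, PBX and PKNOX homeodomain proteins. Of 7 tested cofactor genes, *Meis2*, *Pknox2* and *Meis3* were higher dorsally and none ventrally, against 4.79% and 4.09% of all tested genes. *Meis2* had 12.11 and 12.24 dorsally and 11.03 and 11.25 ventrally (log2 difference 1.04, adjusted p = 0.000173 from limma), and without the probe sets whose suffix marks shared matches it differed by 2.23. *Pknox2* had 8.88 and 8.74 dorsally and 7.89 and 7.42 ventrally (difference 1.16, adjusted p = 9.89e-05 from limma), and the mean of its probe sets (0.49) missed the threshold. In both genes the parts did not overlap. *Meis3* (0.66, adjusted p = 0.0306 from limma) lost its call in 7 of 15 alternatives, among them the omission of either dorsal array or of ventral replicate 2. *Meis1* (0.27, adjusted p = 0.445 from limma) passed with the mean of all probe sets (0.74), without those probe sets (0.86) and without ventral replicate 1 (0.45), and the PBX genes *Pbx2* and *Pbx3* differed by 0.22 and 0.01. The median of the 7 genes was 0.35, against 0.07 for all tested genes. Without ventral replicate 1 it was 0.60, against 0.18 for all tested genes in that fit.

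Retinoic acid is a signal that switches on Hox genes of low paralog numbers. Of 11 tested genes of its synthesis, binding, receptors and breakdown, 5 were higher dorsally and none ventrally, with a median of 0.22. Of all tested genes 4.79% and 4.09% were called so, with a median of 0.07. *Aldh1a2*, which makes retinoic acid, had 11.81 and 11.85 dorsally and 10.92 and 10.75 ventrally (1.99-fold, adjusted p = 0.000233 from limma). *Crabp1*, a binding protein that is also strong in migrating neural crest, had 11.10 and 10.98 dorsally and 7.20 and 6.31 ventrally (difference 4.29). The degrading enzyme genes *Cyp26b1* and *Cyp26a1* were also higher dorsally, by 1.04 and 0.95. *Rdh10*, which makes the precursor of retinoic acid, differed by 0.04 and *Dhrs3*, which acts in the reverse direction, by -0.05, and neither passed. *Stra6*, a retinol transporter, differed by 0.67 (adjusted p = 0.0196 from limma) and lost its call in 6 of 16 alternatives, among them the omission of either dorsal array. The receptors *Rara*, *Rarb* and *Rarg* differed by 0.07 to 0.22 and none passed. *Crabp2*, another binding protein, differed by -0.51 (adjusted p = 0.101 from limma) and was called ventrally higher in 4 of 16 alternatives. Without dorsal replicate 1 the number of dorsally higher genes was 3, since *Cyp26a1* also missed the threshold.

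Of 15 Polycomb and Trithorax genes, which keep Hox chromatin silent or active, none reached the adjusted threshold, and the unadjusted p of 1 from limma was under 0.05. Their median difference was 0.18, against 0.07 for all tested genes. Without ventral replicate 1 it was 0.32, against 0.18 for all tested genes in that fit. Of the Cdx and hindbrain regulators, *Cdx1*, *Cdx2*, *Cdx4* and *Egr2* were under the filter and *Gbx2* differed by 0.35 (adjusted p = 0.268 from limma).

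**Figure D5:**
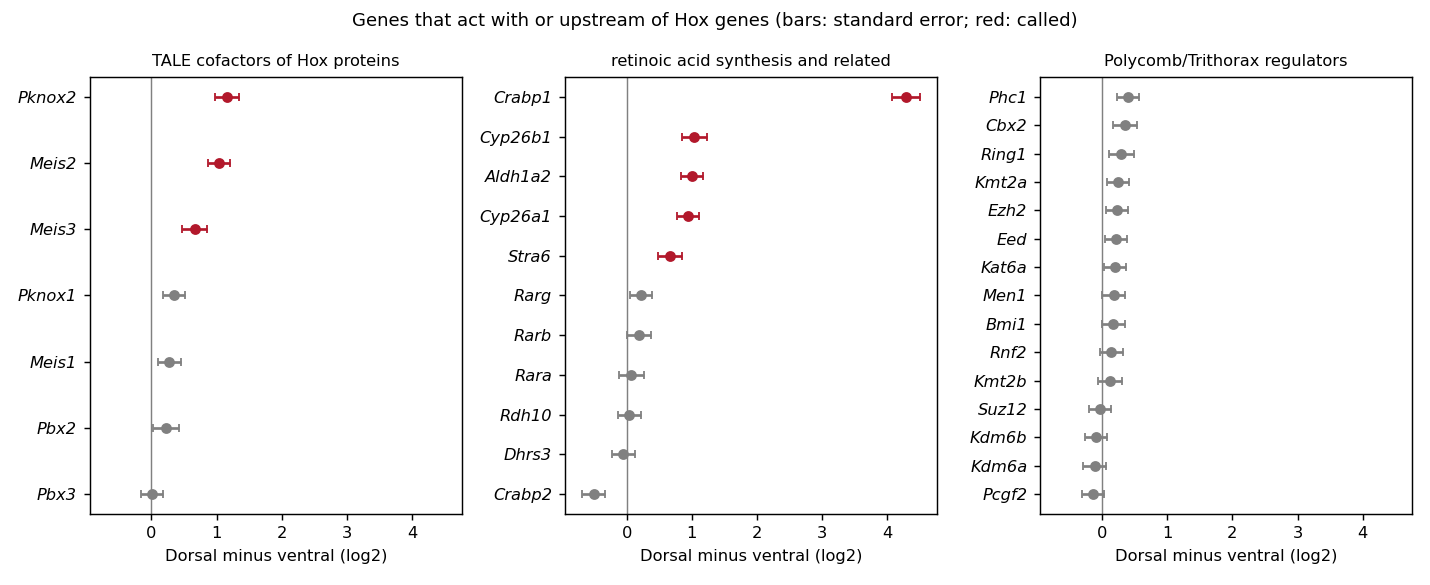
Dorsal minus ventral difference (log2, horizontal axis) of the tested TALE cofactors, retinoic acid genes and Polycomb or Trithorax genes, with standard errors of limma and red for genes called higher dorsally. *Crabp1* lies at 4.29, *Meis2*, *Pknox2*, *Aldh1a2*, *Cyp26b1* and *Cyp26a1* near 1, and no Polycomb or Trithorax gene is called.

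The genes that flank the clusters in the RefSeq order were compared as neighbours. Of 15 with a value, 13 were tested, and *Skap1*, next to *Hoxb1*, and *Skap2*, which flanks cluster A, were higher dorsally, 2 of 13 against the 4.79% of all tested genes. *Skap2*, an adaptor protein gene, had 11.15 and 11.10 dorsally and 10.66 and 10.43 ventrally (difference 0.58, adjusted p = 0.0348 from limma), and lost its call when either dorsal array was left out. *Skap1*, an adaptor of T cells, had 4.97 and 5.02 dorsally and 4.29 and 4.44 ventrally, under the 40th percentile on both ventral arrays (difference 0.63, adjusted p = 0.0183 from limma), and with values under the percentile set to it the difference was 0.24 and the call was lost (adjusted p = 0.481 from limma). Of the genes next to the other ends, *Ttll6* at cluster B (-0.07), *Calcoco1* (-0.33) and *Smug1* (0.28) at cluster C and *Evx2* (-0.22) and *Mtx2* (0.15) at cluster D did not pass, and *Evx1* at cluster A was under the filter.

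Markers of the cells that the dissected parts could hold were measured on the same arrays. Of all tested genes, 4.79% were called higher dorsally and 4.09% ventrally, with a median difference of 0.07. Of 8 tested neural crest and enteric crest genes, 6 were higher dorsally and 1, *Ednrb* (-1.37), ventrally. Their median difference was 1.70, with a mean RMA value of 8.55 to 8.67 on the dorsal and 6.88 to 6.90 on the ventral arrays. Neuronal genes were higher dorsally for 5 of 8 and ventrally for 1, with means of 6.82 to 6.84 and 6.18 to 6.24. Somite genes were higher dorsally for 3 of 7, among them *Meox1* (2.01), with means of 7.33 to 7.55 and 6.85 to 6.86, while *Pax1*, *Uncx* and *Myf5* were under the filter. Of 12 neural tube genes 7 were under the filter, among them *Sox1*, *Olig2* and *Nkx2-2*, and of the 5 tested *Nkx6-1* was higher dorsally and *Irx3* ventrally. Blood genes were higher dorsally for 3 of 6 and ventrally for none. Heart muscle genes were higher ventrally for 8 of 8, with means of 6.52 on the dorsal and 10.05 to 10.32 on the ventral arrays. Foregut epithelial genes were higher dorsally for 1 of 10 and ventrally for 2, among them *Shh* (-2.66), foregut mesenchymal genes dorsally for 2 of 10 and ventrally for 5, and no endothelial gene of 8 passed. Several of these counts moved when 1 array was left out. Without ventral replicate 2, 6 epithelial genes were ventrally higher, and 5 were after one more quantile normalization. Without ventral replicate 1 the median difference went from 0.04 to 0.15 for endothelial and from 0.78 to 0.97 for blood genes. For mesenchymal genes it went from -0.37 to -0.06, and for all tested genes from 0.07 to 0.18. Without dorsal replicate 1 the dorsal counts were 3 for neuronal and 2 for somite and blood genes, and without dorsal replicate 2 it was 2 for neuronal genes. Without either dorsal array no neural tube gene passed. The neural crest count was 5 or 6 and the heart count 7 in these 4 fits. The part of these cells in the Hox differences was not tested. The foregut itself was marked by *Foxf1*, *Barx1*, *Foxa2* and *Epcam* above the 40th percentile on all arrays, and none of these 4, named after their values were seen, passed. Both ventral values exceeded both dorsal ones for *Epcam* (-0.31) and *Foxa2* (-0.36), and other members were called in either direction, such as *Sox2* (0.57) and *Wnt4* (2.47) dorsally and *Foxa1* (-0.63) and *Bmp4* (-2.53) ventrally. The respiratory marker *Nkx2-1* had 5.10 and 5.03 dorsally and 5.09 and 5.25 ventrally, below the median of every array.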

How the data were processed

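Total RNA (100 ng) from each part was labelled by Affymetrix's protocol of 2 cycles and hybridised to arrays of 45101 probe sets. The authors deposited RMA values, per the labels, which are read here as log2 values from their range of 2.36 to 15.02. Its version is not given in sources used here, no detection calls were used, and the deposited values were not normalized again. The number of arrays, 2 per part, limits the precision. Of the probe sets 34958 had 1 gene symbol in GEO's annotation, 932 had several and 9211 were not named here. The identifiers of all 33 Hox genes were found in a RefSeq gene table of GRCm38.p6, while promoter sequences came from a separate table that holds only some of these genes. Each gene was represented by the probe set with the highest mean, and the 13139 of 18194 genes above the 40th percentile of an array on at least 2 arrays entered a two-sided linear model of the dorsal minus ventral difference (limma 3.58.1, R 4.3.3, functions lmFit and eBayes), adjusted by Benjamini-Hochberg with a threshold of 0.05. The fit was checked on simulated arrays. The alternatives were other filters, normalizations, probe set choices, variance models and thresholds, the replicate number as a block, and the omission of each array with filter and probe sets chosen anew. Every Hox gene is named, with its values on all arrays where it was tested. Other genes are named for their differences within their lists, some of them after their values were seen. The members and lists were chosen with earlier results of these data known.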

Additional observations from a re-analysis of the deposited data

How the results depend on the processing

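The count of dorsally higher Hox genes was 10 with all arrays and ran from 4 to 12 when 1 array was left out, as the report gives, and the ventral count ran from 0 to 1. Under the other 12 alternatives the dorsal count was 8 to 10 and the ventral count was 0. The median difference of the tested Hox genes was 0.60, and it was 0.072 with no filter, where 33 genes entered, 0.78 with a filter at the 60th percentile, where 13 did, and 0.22 to 0.69 when 1 array was left out. A fit without an array estimates the spread from the remaining pair alone, and the ventral pair differed by a median of 0.26 over all tested genes where the dorsal pair differed by 0.08. Without ventral replicate 1 the median difference of all tested genes was 0.18. With the values quantile-normalized once more, 479 genes were higher dorsally and 635 ventrally in all, against 629 and 538, and the dorsal Hox count was 10. The replicate numbers are shared between the parts, but the labels do not say that they pair them. The poly-A controls were higher on replicate 2 in both parts, by 1.94 dorsally and 1.63 ventrally. Whether the numbers mark a shared batch was not tested. The deviations of same-numbered arrays from the mean of their part correlated at 0.136 over genes, and with the replicate block the dorsal Hox count was 10 and the ventral count 0. Over the 10 called genes and the alternatives there were 154 tested cases, of which 144 kept the call and 10 lost it. These are not all separate fits, since the thresholds of 0.01 and 0.10 reuse the main fit, and 0.10 keeps every call. Alternatives in which *Hoxb6* or *Hoxd3* was not tested are left out of the 154. No difference changed sign, which for the omission of an array follows from the lack of overlap. The alternatives for the other named genes were run after their values were seen.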
